A study of Homo sapiens with 191 samples.

Results

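Far intronic regions are the accessible regions of GM12878 cells that lie deep inside protein-coding genes. A region was counted as one when its centre fell within the span of a protein-coding gene, in no annotated exon of any gene, and more than 10 kb from every annotated transcription start site (TSS) of a protein-coding gene. By this rule 7987 of the 50000 regions in the pooled list were far intronic, or 16.0% of the list (exact binomial 95% interval 15.7 to 16.3). GM12878 is an Epstein-Barr virus transformed human B lymphoblastoid cell line. Its cells were fixed, permeabilised, transposed without antibody staining and sorted singly into plates, and the libraries covered here, 96 on plate 1 and 95 on plate 2, form 1 group. The authors pooled the cells before they called regions, so the list holds 1 position and 1 score for each region, no value per cell or per library, and no second group. No replicate error could therefore be computed, no test was made, and every interval covers counting error only. As a check of the label, 26 of 27 B cell receptor signalling genes with far intronic sequence had a region within 1 kb of a TSS, against 12 of 22 T cell genes and 65.0% of all genes with such sequence. Genes used by most cells had one as often (30 of 31 chromatin and DNA repair genes), so the count does not mark B cells alone.

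Introns are removed from the transcript, but their DNA also carries enhancers, short stretches bound by transcription factors that can act on the promoter of the gene around them or of another gene at a distance. ATAC-seq marks such stretches because the Tn5 transposase inserts its adapters where nucleosomes are displaced. In B cells, factors of the RUNX, ETS, EBF, E protein, MEF2, octamer, interferon regulatory factor and NF-kB families bind enhancers, and AP-1 type factors join them on activation.

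The strongest far intronic regions are shown first by their DNA, since later sections refer to the sites in it. Each sequence is the plus strand of GRCh37 (hg19), 5′ to 3′. The first pair gives 300 bases around the centres of the members with the highest and the next highest score, in introns of ATP8A1, a phospholipid flippase, and of ANKRD33B, an ankyrin repeat protein. Capitals mark matches to any of 20 consensus motifs, described further on. The ATP8A1 stretch held 0 matches, and the ANKRD33B stretch held 1, to AP-1.
ATP8A1 intron 1, chr4:42630313-42630612: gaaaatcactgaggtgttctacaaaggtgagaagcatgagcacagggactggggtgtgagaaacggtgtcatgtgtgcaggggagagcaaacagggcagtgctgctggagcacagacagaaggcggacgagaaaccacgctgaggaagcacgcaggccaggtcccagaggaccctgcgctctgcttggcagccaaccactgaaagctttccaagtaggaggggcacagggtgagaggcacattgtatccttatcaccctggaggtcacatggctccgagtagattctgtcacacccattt
ANKRD33B intron 2, chr5:10632389-10632688: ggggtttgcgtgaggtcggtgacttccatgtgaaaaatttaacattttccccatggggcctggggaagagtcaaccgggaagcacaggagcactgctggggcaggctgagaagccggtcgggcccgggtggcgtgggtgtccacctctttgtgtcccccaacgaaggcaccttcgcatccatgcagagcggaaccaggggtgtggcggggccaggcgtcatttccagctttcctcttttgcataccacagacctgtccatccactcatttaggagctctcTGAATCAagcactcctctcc

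For each of 6 factor families, the next set gives the centre, with 50 bases on either side, of the strongest far intronic region with a match no more than 50 bp from its centre, with the regions of 1 chromosome left out, and capitals mark that family's match. These examples were picked by score among regions with such a match, and they are not evidence of binding. AP-1 was searched as TGANTCA, PU.1, an ETS factor of B and myeloid cells, as GAGGAAGT, RUNX as TGTGGTT, NF-kB as GGGANTTTC, the octamer of POU2F factors as ATGCAAAT and the insulator protein CTCF as AGGGGGCNC, all on both strands.
AP-1, STK24 intron 3, chr13:99128916-99129016: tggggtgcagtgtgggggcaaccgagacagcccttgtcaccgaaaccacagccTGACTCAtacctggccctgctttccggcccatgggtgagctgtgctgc
PU.1, CMIP intron 1, chr16:81515108-81515208: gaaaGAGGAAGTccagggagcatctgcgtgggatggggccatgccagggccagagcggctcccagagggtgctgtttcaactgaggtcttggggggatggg
RUNX, CNIH3 intron 4, chr1:224920994-224921094: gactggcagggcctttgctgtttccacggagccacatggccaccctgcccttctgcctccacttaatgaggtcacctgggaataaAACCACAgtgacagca
NF-kB, SLC10A7 intron 10, chr4:147194858-147194958: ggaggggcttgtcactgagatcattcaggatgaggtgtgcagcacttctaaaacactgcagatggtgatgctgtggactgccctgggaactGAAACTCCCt
octamer, ARHGAP10 intron 1, chr4:148700256-148700356: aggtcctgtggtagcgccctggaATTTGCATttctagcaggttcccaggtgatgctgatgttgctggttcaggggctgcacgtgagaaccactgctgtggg
CTCF, TIAM1, chr21:32882035-32882135: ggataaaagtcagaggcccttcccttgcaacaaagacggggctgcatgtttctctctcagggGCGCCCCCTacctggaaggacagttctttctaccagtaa

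The last pair, chosen after their values were seen, gives the same stretch of the strongest region in 2 genes of lymphocyte signalling. These are DOCK2, an activator of the GTPase Rac in blood cells, and ITPKB, an inositol trisphosphate kinase of lymphocytes. Capitals mark matches to any of the 20 motifs, of which DOCK2 held 0 and ITPKB held 1, to C/EBP.
DOCK2 intron 26, chr5:169232728-169232828: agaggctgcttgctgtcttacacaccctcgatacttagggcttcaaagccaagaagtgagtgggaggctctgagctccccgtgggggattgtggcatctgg
ITPKB intron 2, chr1:226850700-226850800: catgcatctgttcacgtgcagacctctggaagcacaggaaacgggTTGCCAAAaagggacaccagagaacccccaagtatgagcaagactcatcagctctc

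Far intronic regions were sparser than regions nearer to promoters and had lower scores. Far intronic sequence, the bases that meet the same rule, covered 706 Mb, or 24.9% of the bases without N, and held 11.3 regions per Mb (exact Poisson 95% interval 11.1 to 11.6). Intronic sequence within 10 kb of a TSS held 17.6 per Mb (17.2 to 18.1, 7033 regions), sequence outside genes and over 10 kb from a TSS held 9.87 (9.71 to 10.0, 13432 regions), and sequence within 1 kb of a TSS held 129.6 (127.6 to 131.6, 16365 regions). The density of far intronic regions was thus 0.642 times that of near intronic and 1.15 times that of far intergenic sequence, and neither pair of intervals overlapped.

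The score is the −log10 of the q-value that the peak caller gave each summit in the pooled cells, so it grows with the number of fragments as well as with their concentration. Far intronic regions had a median score of 24.3 (quartiles 18.7 and 44.2). Far intergenic regions had the same median and quartiles, near intronic regions a median of 27.2 (20.0 and 47.4), and promoter regions 64.3 (28.6 and 188.7). Of the far intronic regions, 1077 (13.5%, 12.7 to 14.3) reached the upper score quartile of the list, 74.9, against 25.1% of all regions. The share was 14.1% (13.3 to 15.0) of near intronic and 46.5% (45.7 to 47.2) of promoter regions. Only 12 far intronic regions stood among the 1000 strongest of the list and 752 among the 10000 strongest, and 714 (8.94%) sat at the lowest score kept, 16.0.

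Density and score both fell with distance from the nearest TSS. Regions 10 to 20 kb away numbered 2739, at 13.6 per Mb (13.1 to 14.1) and a median score of 27.2. The density was 11.8 per Mb (11.4 to 12.3) at 20 to 50 kb, 10.7 (10.2 to 11.3) at 50 to 100 kb, 7.89 (7.28 to 8.53) at 100 to 200 kb and 6.20 (5.45 to 7.02) at 200 to 500 kb. The 28 regions beyond 500 kb lay at 5.88 per Mb (3.91 to 8.50), with a median score of 20.0, and this interval overlaps that of the class before it. The median distance of all members was 27.9 kb, with quartiles of 16.6 and 56.8 kb.

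**Figure D1:**
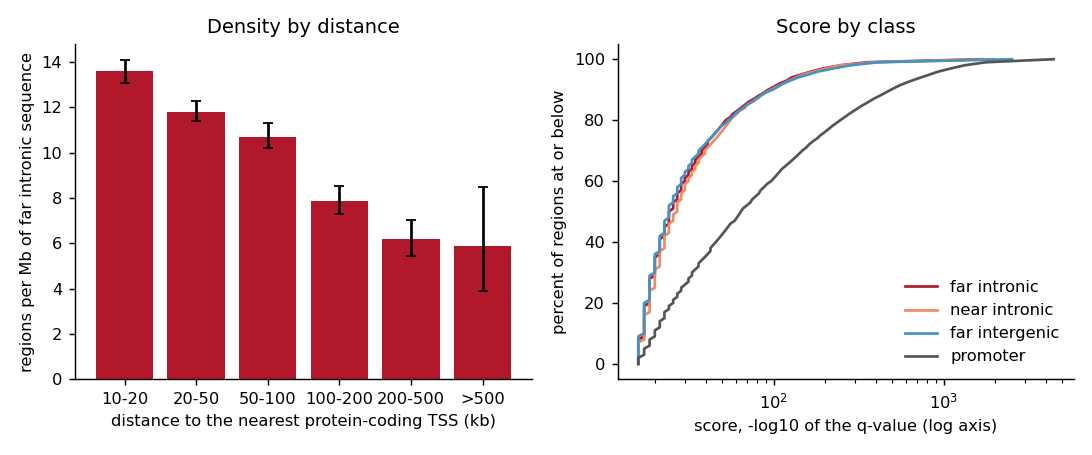
Left, far intronic regions per Mb of far intronic sequence by distance to the nearest protein-coding TSS in kb, with exact Poisson 95% intervals. Right, percent of regions of each class at or below a score, with the score on a log axis. Density falls from 13.6 to 5.88 per Mb, and the far intronic curve runs along the near intronic and far intergenic curves, well to the left of the promoter curve.

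The most remote members sat in large genes of the nervous system and had low scores, with 1 exception. Of the 5 farthest from any TSS, 3 were in PTPRD, a receptor tyrosine phosphatase, at 806, 768 and 749 kb and with scores of 16.0, 21.4 and 18.7. A region in intron 3 of LRRTM4, a synaptic adhesion protein, lay 760 kb away and scored 20.0. The fifth, in intron 5 of IL1RAPL1, an interleukin 1 receptor accessory-like protein of neurons, lay 737 kb away and scored 87.6, above the upper quartile of the list.

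The limit of 10 kb cuts through a continuous range of distances. The 3 members nearest to it were in FGF18 (10004 bp, score 16.0), KIRREL3 (10005 bp, score 27.2) and TNFRSF1B (10008 bp, score 21.4). The 3 intronic regions nearest to it on the promoter side were in VDR (10000 bp, score 21.4), SND1 (9992 bp, score 39.4) and HK1 (9990 bp, score 30.1). In the 500 bp on the promoter side there were 202 intronic regions, with a median score of 28.6, and in the 500 bp beyond the limit there were 197, with a median of 27.2.

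The 10 strongest members had scores from 841 to 1693, and all stood among the 1000 strongest regions of the whole list. The strongest, score 1693, lay at chr4:42630213-42630713, in intron 1 of 36 of ATP8A1, 12.4 kb from the nearest TSS and 1337 bp from the nearest exon. The next, score 1136, lay at chr5:10632289-10632789 in intron 2 of 3 of ANKRD33B, 68.1 kb from any TSS. A region in TACC1, a coiled-coil protein of the centrosome, scored 1068 and fell outside the span of the canonical transcript, and its sequence is not shown. ZMAT3, a zinc finger RNA-binding protein of the p53 pathway, held a region of score 976 in its intron 2, and ITPKB one of 941 in its intron 2 of 7, 62.5 kb from a TSS. CNIH3, an auxiliary subunit of AMPA glutamate receptors, held one of 925 in intron 4 of 5, at 97.6% of the length of the gene and 117025 bp from a TSS. DOCK2 held one of 896 in intron 26 of 51, at chr5:169232528-169233028. ZSWIM6, a zinc finger protein, held one of 875 in its intron 1 of 140 kb. ICA1, an autoantigen of pancreatic islets, held one of 857 in its last intron, number 13, and STK24, a serine/threonine kinase, one of 841 in intron 3 of 10. None of these 10 was within 1 kb of the start of a non-coding transcript, the nearest being 2680 bp away, in CNIH3.

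Far intronic regions fell in 2808 host genes, or 28.4% of the 9901 protein-coding genes that hold any far intronic sequence. The other 10197 of the 20098 annotated protein-coding genes hold none, since all their bases without N are within 10 kb of a TSS or in an annotated exon of any gene. Of the hosts, 1275 (45.4%) held 1 region, 1054 held 2 to 4, and 479 held at least 5. Since 196 regions lay within more than 1 protein-coding gene, there were 8191 pairs of a host and a region, and 481 hosts (17.1%) accounted for 50% of them. Hosts were longer than the other genes, with a median of 86.9 kb of far intronic sequence against 16.0 kb.

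The hosts with the most regions held between 20 and 29 each. SH3KBP1, an adaptor of receptor endocytosis and B cell receptor signalling, held 29, with scores from 16.0 to 327 and 6 of them in the upper quartile of the list. ATXN1, a transcriptional repressor of the nervous system, held 25, ANKRD33B 24, CTNNA2, a neuronal alpha catenin, 23, and ZFPM2, a GATA cofactor of the heart, 23. TMEM131L held 22, and AUTS2, a nuclear regulator of neuronal development, CELF2, an RNA-binding splicing factor, and ITPR1, which releases calcium from the endoplasmic reticulum, 20 each.

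Set against their far intronic sequence, these 9 hosts differed widely. ANKRD33B held 32.6 regions per 100 kb (20.9 to 48.5), TMEM131L 25.8 (16.1 to 39.0), ITPR1 15.5 (9.47 to 23.9) and SH3KBP1 13.4 (9.00 to 19.3). CTNNA2 held 1.85 (1.17 to 2.78), AUTS2 2.13 (1.30 to 3.28) and ZFPM2 2.19 (1.39 to 3.29), beside 1.13 (1.10 to 1.15) over all genes with such sequence. Scores differed as well. The 23 ZFPM2 regions had a median of 24.3 and a highest score of 89.4, while the 20 CELF2 regions had a median of 44.2 and a highest score of 471, with 8 of them in the upper quartile of the list.

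Among hosts with at least 5 regions, the 10 densest had at most 73.7 kb of far intronic sequence each. A ranking per length favours genes with little of it. TENT4A, a non-canonical poly(A) polymerase, held 7 regions in 11.1 kb of far intronic sequence, 62.9 per 100 kb (25.3 to 130). It was followed by the unnamed gene ENSG00000285635 (36.5 per 100 kb), BIN1, a membrane-bending protein (36.4), ABCG1, a cholesterol transporter (35.8), EHD3, a protein of endosomal recycling (33.1), and ANKRD33B. The last of the 10 were TTC9 (31.6), MAL, a proteolipid of lymphocyte membranes (30.6), DAPP1, an adaptor downstream of the B cell receptor (29.5), and BMAL1, a transcription factor of the circadian clock (27.5). The 8 regions of DAPP1 spanned only chr4:100768635-100774362 and had a median score of 90.1, with 4 in the upper quartile of the list. They were picked for their density, and their intervals all overlapped, so their order is not resolved by these counts.

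**Figure D2:**
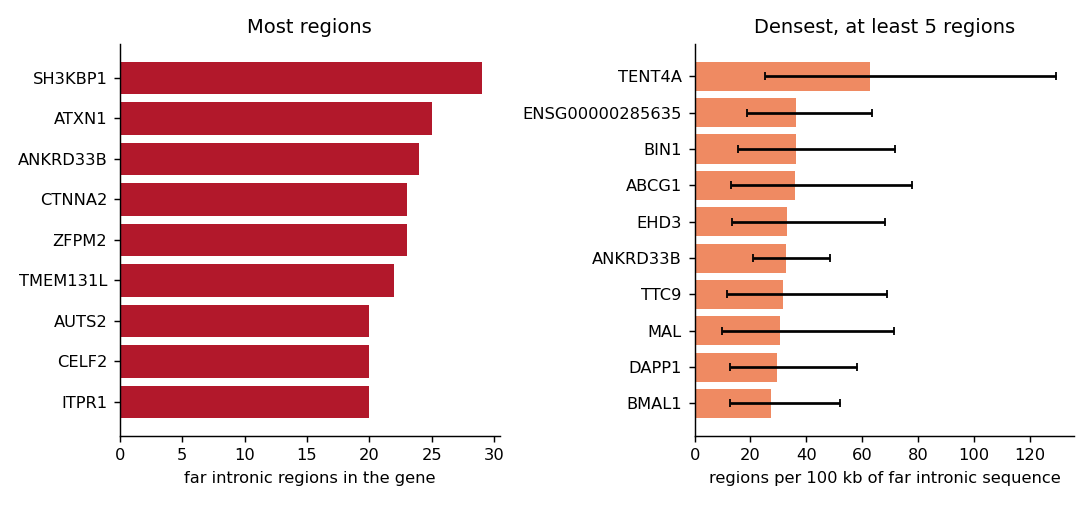
Left, number of far intronic regions in 9 of the 10 host genes with the most. Right, regions per 100 kb of far intronic sequence in the 10 densest hosts with at least 5 regions, with exact Poisson 95% intervals. SH3KBP1 leads by count with 29 and TENT4A by density with 62.9, and only ANKRD33B is in both sets.

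Genes of B cell receptor signalling held more far intronic regions per length than genes at large. Of the 27 with far intronic sequence, 20 were hosts (74.1%, 53.7 to 88.9), against 28.4% of all genes with such sequence. The share of hosts also rises with the amount of such sequence in a gene. Among genes with a region within 1 kb of a TSS it was 5.81% up to 10 kb, 22.2% at 10 to 50 kb, 51.2% at 50 to 200 kb and 89.8% above. The density of the list was 4.29 regions per 100 kb (3.62 to 5.04), against 1.13 over all genes. The median over single genes was 2.66 per 100 kb, and 0 over all genes. SH3KBP1 held 29, ITPR1 20, DOCK2 13 and LYN, a SRC family kinase, 12. BANK1, a B cell scaffold protein, held none in 560 kb, and BTK, PIK3CD and PIK3R1, a tyrosine kinase and subunits of a lipid kinase, held none in 1.54, 18.0 and 20.3 kb. Several of these genes were already known from earlier results of these data to be rich in regions. Without SH3KBP1, ITPR1, RFTN1, FYN and PLCG2 the density was 2.73 per 100 kb (2.16 to 3.39). Chromatin and DNA repair genes, with a promoter region about as often (96.8%, against 95.5% of the reduced list), held 1.91 (1.49 to 2.43). This interval overlaps that of the reduced list and lies below that of the full list. A gene without a region has none among the 50000 strongest, which does not show that its introns were closed.

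B cell transcription factor genes held 89 regions in 19 of 27 genes (70.4%, 49.8 to 86.2), against 28.4% of all genes with far intronic sequence. That share also depends on how much such sequence a gene holds. The density of the B cell factor genes was 1.96 per 100 kb (1.57 to 2.41), with a median over genes of 1.5, against 1.13 and 0 over all genes. EBF1, which commits progenitors to the B lineage, held 17, with scores from 18.7 to 130, and 15 of them lay in intron 6. ETV6, an ETS repressor, held 14 (best score 284), FLI1, an ETS activator, 12 (17.4 per 100 kb) and BACH2, a repressor of plasma cell differentiation, 6. IKZF3, MEF2C, POU2F1 and POU2F2 held none in 65.7, 18.7, 91.1 and 23.3 kb. PAX5, the B cell identity factor, named here after its values were seen, held 2 regions in 133.2 kb, both at the lowest score of the list (16.0).

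NF-kB and TNF family genes are compact, and only 15 of the 30 listed had far intronic sequence, 0.222 Mb in all. Hosts were 5 of the 15 (33.3%, 11.8 to 61.6), beside 28.4% of all genes with such sequence, a share that also depends on how much of it a gene holds. TNFAIP8, a regulator of apoptosis, held 13 of the 19 regions and TNFRSF1B, a TNF receptor, 3, and MAP3K14 and MAP3K8, both kinases of the pathway, 1 each. CFLAR, CYLD, IKBKB and IKBKE held none. The density of 8.56 per 100 kb (5.16 to 13.4), with a median over genes of 0, was 4.01 (1.47 to 8.73) without TNFAIP8, which was also known beforehand to be rich in regions.

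Genes of other cell types were hosts too. Over all genes with far intronic sequence 28.4% were hosts, a share that depends on how much of it a gene holds. Their density was 1.13 per 100 kb. T cell genes held 34 regions in 13 of 22 genes (59.1%, 36.4 to 79.3), at 1.57 per 100 kb. The interval of this density (1.09 to 2.20) contains the value over all genes. The median over T cell genes was 1.12, with 7 regions in RORA, 4 in LEF1, 4 in UBASH3A and 3 in CAMK4. None was found in BCL11B, CD247, CD28 or CD4. Of 38 long neuronal genes 36 were hosts (94.7%, 82.3 to 99.4), yet their 272 regions lay in 41.8 Mb, at 0.650 per 100 kb (0.575 to 0.732) and a median over genes of 0.529. CTNNA2 held 23, AUTS2 20, GRID1 17 and NTM 15, and NRG1 and PTPRT held none in over 1000 kb each. Muscle and extracellular matrix genes held 61 regions in 19 of 30 genes, at 0.705 per 100 kb (0.539 to 0.905) and a median over genes of 0.563, led by DMD with 11, RYR2 with 8, SGCD with 7 and HMCN1 with 5. FBN1 held none in 135.1 kb, and COL12A1, COL3A1 and COL6A3 held none in 21.4 kb or less.

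Chromatin and DNA repair genes, which most cells use, held 68 regions in 16 of 31 genes (51.6%, 33.1 to 69.8). Of all genes with far intronic sequence 28.4% were hosts, a share that depends on how much of it a gene holds. The density of the chromatin and DNA repair genes was 1.91 per 100 kb (1.49 to 2.43), against 1.13 over all genes. The median over the listed genes was 0.790. The pooled density was close to that of the B cell transcription factor genes. ARID1B held 11, HDAC4 9, RAD51B 9 and HDAC9 6, and ARID1A, ARID2 and ATR held none in 14.6, 106.9 and 21.2 kb. The density of the B cell factors was thus not set apart from that of broadly used genes by their intervals. A promoter region was present in 92.6% of the B cell factor genes and 96.8% of the chromatin genes, against 57.9% of the neuronal and 40.0% of the muscle and matrix genes.

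Genes with an accessible promoter held far intronic regions more densely than genes without one. A promoter was counted as accessible when any region of the list was centred within 1 kb of a TSS of the gene. The 6434 such genes held 1.36 regions per 100 kb of far intronic sequence (1.33 to 1.40), and the 3467 others 0.717 (0.685 to 0.750), a ratio of 1.90. The difference was seen at every amount of far intronic sequence. Genes with up to 10 kb held 1.66 (1.39 to 1.98) against 0.891 (0.640 to 1.21), those with 50 to 200 kb 1.62 (1.55 to 1.68) against 0.862 (0.797 to 0.932), and those with over 200 kb 1.11 (1.07 to 1.16) against 0.594 (0.557 to 0.634). Counted by gene, 1977 of the 2808 hosts (70.4%, 68.7 to 72.1) and 4457 of the 7093 others (62.8%, 61.7 to 64.0) had an accessible promoter.

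The strength of the promoter did not order the hosts in the same way. Among genes with an accessible promoter, the quartile with the weakest promoter regions (scores from 16.0 to 52.4) held 1.18 far intronic regions per 100 kb (1.13 to 1.24). The next quartiles held 1.58 (1.51 to 1.66) and 1.51 (1.43 to 1.59), and the quartile with the strongest (385 to 4438) held 1.25 (1.18 to 1.32).

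**Figure D3:**
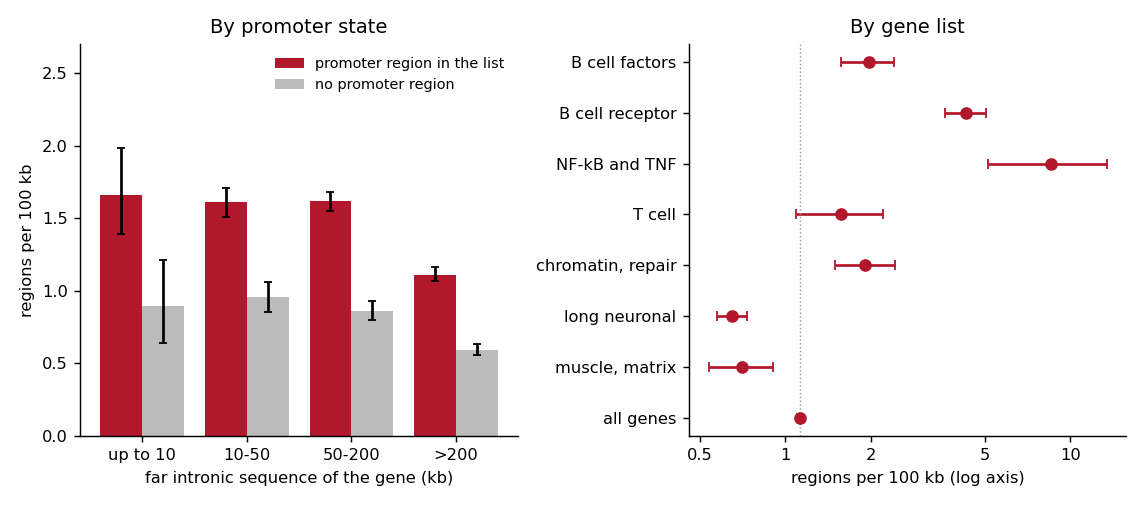
Left, far intronic regions per 100 kb of far intronic sequence in genes with and without a promoter region, by the amount of such sequence in the gene. Right, the same density for the 7 gene lists and for all genes (dotted line at 1.13), on a log axis, with exact Poisson 95% intervals in both panels. Genes with a promoter region are denser in all 4 classes, and the long neuronal and the muscle and matrix lists lie below the line.

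Early introns held more far intronic regions than their share of the sequence. Of the 7791 regions with 1 host gene, 6727 lay in an intron of its canonical transcript and 1064 (13.7%) outside the span of that transcript. The first intron held 2005 of the 6727 (29.8%, 28.7 to 30.9), against 22.5% of the far intronic bases, and the second 19.4% (18.4 to 20.3) against 16.4%. Introns of rank 10 or later held 14.7% (13.9 to 15.6) against 20.7%. Density fell from 15.1 per Mb (14.4 to 15.7) in the first intron to 13.4 (12.7 to 14.2) in the second, 12.1 (11.3 to 13.0) in the third and 8.10 (7.60 to 8.62) at rank 10 or later. Median scores ran from 27.2 in the first intron to 22.8 at rank 10 or later.

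Density fell with distance from the TSS as well as with rank, so ranks were compared within distance classes. At 10 to 20 kb from the nearest TSS the first intron held 18.6 regions per Mb (17.4 to 20.0), the second 15.2 (13.8 to 16.8) and later introns 10.9 (10.2 to 11.6). At 20 to 50 kb the values were 15.5 (14.4 to 16.6), 14.2 (13.0 to 15.6) and 9.86 (9.31 to 10.4), and beyond 50 kb they were 10.5 (9.53 to 11.6), 11.4 (10.4 to 12.6) and 8.16 (7.69 to 8.65). The intervals of the first and the second intron were apart at 10 to 20 kb and overlapped in the other classes, and both lay above later introns in each class.

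Intron length moved with rank too, with a median of 79.1 kb for regions in first introns, 42.8 kb in inner and 29.3 kb in last ones. In introns of 20 to 50 kb the first held 17.9 per Mb (16.4 to 19.6) and later ones than the second 10.6 (9.96 to 11.4). In introns of 50 to 100 kb the values were 18.6 (17.2 to 20.0) and 9.01 (8.28 to 9.79), and the second intron, at 19.9 (18.1 to 21.9), matched the first within its interval. In introns over 200 kb the first held 9.03 (8.05 to 10.1), the second 5.74 (4.73 to 6.91) and later ones 7.01 (6.14 to 7.97), so the second intron was not above later ones there.

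**Figure D4:**
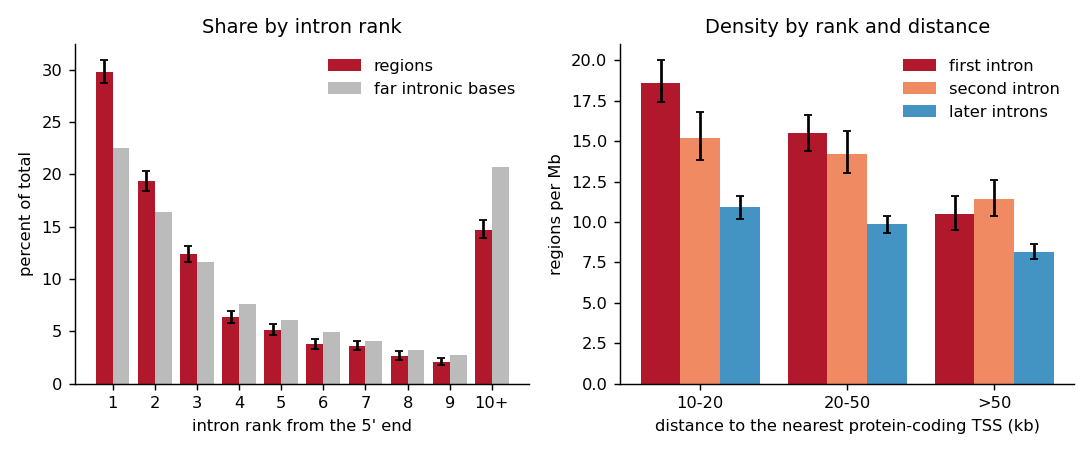
Left, percent of far intronic regions (red, with exact binomial 95% intervals) and of far intronic bases (grey) in each intron rank of the canonical transcript, counted from the 5′ end. Right, regions per Mb in the first, the second and later introns by distance to the nearest protein-coding TSS in kb, with exact Poisson 95% intervals. Regions exceed bases at ranks 1 to 3 and fall below them from rank 4, and later introns are the lowest group in all 3 distance classes.

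By class of intron, first introns (in transcripts with more than 1) held 1919 regions, inner introns 4216, last introns 506 and single introns 86. Last introns, at 12.3 per Mb (11.3 to 13.4), were denser than inner introns, at 10.1 (9.81 to 10.4). The 3 strongest regions of first introns were in ATP8A1, ZSWIM6 and PPARGC1B, a coactivator of mitochondrial genes (score 828, in an intron of 90.0 kb). Those of inner introns were in ANKRD33B, ZMAT3 and ITPKB. In last introns the strongest were in ICA1 (score 857), SOBP (score 369, chr6:107979009-107979509) and CNIH3 (score 357), whose last intron is next to the one with its stronger region.

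A few single introns held many regions. The regions fell in 3821 canonical introns, 2570 of which held 1 and 209 at least 5. The introns named here were chosen after their values were seen. Intron 3 of TMEM131L, 76.2 kb long, held 20 of the 22 regions of its gene. Intron 1 of SH3KBP1 held 15 in 34.1 kb of far intronic sequence, 44.0 per 100 kb (24.6 to 72.5), intron 1 of TRIO, a guanine nucleotide exchange factor, held 16, and intron 2 of ITPKB 14.

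Position along the gene differed little. Regions with 1 host lay a median of 92.3 kb from its 5′ end (quartiles 40.2 and 222 kb), at a median of 47.8% of its length. The first 50% of the gene held 52.2% of them (51.1 to 53.4), against 50.6% of the far intronic bases. With the gene cut into 10 equal parts, the density stayed between 10.5 per Mb (9.74 to 11.2), from 60 to 70% of its length, and 12.6 (11.8 to 13.4), from 10 to 20%. The end of the gene, from 90 to 100%, held 12.3 (11.4 to 13.3). The nearest exon of any gene was a median of 7.40 kb away (quartiles 2.31 and 15.8 kb), and for 323 regions (4.04%) it was within 250 bp of the centre, so that the region itself reached an exon.

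Far intronic regions were less clustered than near intronic ones. Another region lay within 5 kb of 3154 of them (39.5%, 38.4 to 40.6), against 62.6% (61.5 to 63.8) of near intronic and 37.3% (36.5 to 38.1) of far intergenic regions. Those with a neighbour had a median score of 33.1 and those without one 22.8. Part of this came from peaks split into several summits, since 942 (11.8%, 11.1 to 12.5) shared a called peak with another region. With only the strongest region of each peak the share with a neighbour was 32.8%, against 55.5% of near intronic and 30.1% of far intergenic regions.

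Some far intronic regions sat near starts of non-coding genes. The rule leaves out regions centred in exons of such genes, which limits this count in advance. Of the far intronic regions, 2.33% (2.01 to 2.68) were within 1 kb of a non-coding TSS, against 1.56% of the far intronic bases. Of the regions that close, 65.6% were at lncRNA genes and 6.45% at microRNA genes. Sequence that close held 16.9 regions per Mb (14.6 to 19.5), against 11.2 (11.0 to 11.5) farther away, and their median scores were 31.6 and 24.3.

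Chromosomes differed in the density of far intronic regions. Chromosome 6 held 15.1 per Mb (14.0 to 16.3) and chromosome 5 14.7 (13.5 to 15.9), while chromosome 17 held 5.00 (3.97 to 6.23) and chromosome 22 held 3.80 (2.55 to 5.46). Other measures differed between these 4 chromosomes in the same direction. A promoter region was present for 62.5% of the protein-coding genes of chromosome 6 and 64.6% of those of chromosome 5, but for 44.6% on chromosome 17 and 41.1% on chromosome 22. Far intergenic regions lay at 11.1 and 11.2 per Mb on chromosomes 6 and 5 and at 6.54 and 3.82 on chromosomes 17 and 22. This did not hold over all chromosomes. Chromosomes 12, 14 and 15 had promoter regions for 63.2%, 64.9% and 59.6% of their genes but only 8.48, 7.70 and 6.75 far intronic regions per Mb, and chromosome 18 had 14.1 far intronic beside 7.65 far intergenic regions per Mb.

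In base composition far intronic regions stood apart from promoters. Their GC content was 47.9% ± 5.56 (SD over 7987 regions), against 61.3% ± 9.15 at promoters, and their median number of CpG dinucleotides was 6, against 36. Windows of the same width centred 2 kb to the right, of which 7400 overlapped no region, had a GC content of 42.0% ± 7.58.

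Patterns of several lymphoid and activation factors, and of factors common to most cells, were found more often in far intronic regions than 2 kb away. A match was counted anywhere in the region, on either strand, and the comparison windows were poorer in GC, whose part in the differences was not tested. PU.1 matched in 5.68% of the regions (5.19 to 6.21), against 2.35% of the windows and 5.14% of all regions in the list. RUNX matched in 15.0% (14.2 to 15.8), against 9.00% of windows and 11.6% of all regions. AP-1 matched in 21.9% (21.0 to 22.8), against 15.9% and 16.9%, and NF-kB in 3.36% (2.97 to 3.77), against 1.72% and 3.06%. The shares over all regions include promoters, and other regions away from promoters were close to the far intronic ones. RUNX matched in 14.5% of near intronic and 14.2% of far intergenic regions, AP-1 in 20.0% and 21.1%, NF-kB in 2.99% and 3.69%, and PU.1 in 6.41% and 4.96%. The EBF1 pattern CCCNNGGGA matched in 9.45% (8.82 to 10.1), against 4.62% and 12.7%, and was more frequent at promoters (16.8%). It matched in 11.0% of near intronic and 10.2% of far intergenic regions. The E-boxes CAGGTG and CAGCTG, sites of E proteins among others, matched in 45.4% (44.3 to 46.5) and 30.0% (29.0 to 31.1), against 34.7% and 18.5% of windows. Over all regions of the list the E-boxes matched in 42.3% and 29.4%. They matched in 47.1% and 28.9% of near intronic and in 45.4% and 31.0% of far intergenic regions.

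Other B cell patterns were no more frequent than in the windows. The octamer matched in 4.07% (3.65 to 4.53), against 4.26% of windows, and the interferon regulatory factor pattern GAAANNGAA in 17.2% (16.4 to 18.1), against 17.7%. MEF2, searched as CTANAAATA, matched in 10.7% (10.00 to 11.4), against 13.0%. All 3 are rich in A and T, which the windows hold more of. Patterns of factors of other lineages were also less frequent than in the windows. The pattern AGATAAG of GATA factors matched in 5.60% (5.10 to 6.12) against 7.23%, and C/EBP (TTGCNNAA) in 21.2% (20.3 to 22.1) against 25.0%. HNF1 (GTTAATNAT) matched in 1.70% (1.43 to 2.01) against 2.03%, and TEAD (ACATTCCA) in 1.84% (1.56 to 2.16) against 2.58%. These patterns too hold more A and T than G and C, and the part of base composition was not tested. GRHL (AACCGGTT) matched in 6 regions, too few to compare.

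Patterns typical of promoters were rare, and 3 of them were more frequent than in the windows. The SP/KLF pattern GGGGCGGGG matched in 1.44% of far intronic regions (1.19 to 1.73), 0.527% of windows and 24.9% of promoter regions. The CRE (TGACGTCA) matched in 0.438%, 0.149% and 2.72%, and the ETS pattern CCGGAAGT in 0.563%, 0.162% and 6.76%. These are ratios to the windows of 2.73, 2.95 and 3.47, above the 2.42 of PU.1, but the CRE and the ETS pattern rest on 35 and 45 regions. NRF1 (GCGCATGCG) matched in 6 regions and 3.05% of promoters. CTCF matched in 2.05% (1.75 to 2.39) of far intronic regions, 1.05% of windows and 6.19% of promoter regions.

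Position within the region does not depend on the windows, but base composition from centre to edge was not measured, and its part was not tested. Matches within 50 bp of the centre were 2.86 times as dense as those over 200 bp away for SP/KLF (44 against 14 matches), 2.46 times for CRE (8 against 3) and 2.30 times for the ETS pattern (15 against 6). Among patterns with more matches, MEF2 reached 2.03 and EBF1 2.02. The E-box CAGCTG reached 1.73, CTCF 1.72, NF-kB 1.59, the E-box CAGGTG 1.48, PU.1 1.29, RUNX 1.26 and AP-1 1.26. The octamer (0.765), the interferon regulatory factor pattern (0.747), GATA (0.624), C/EBP (0.792) and HNF1 (0.319) were sparser at the centre than at the edge.

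**Figure D5:**
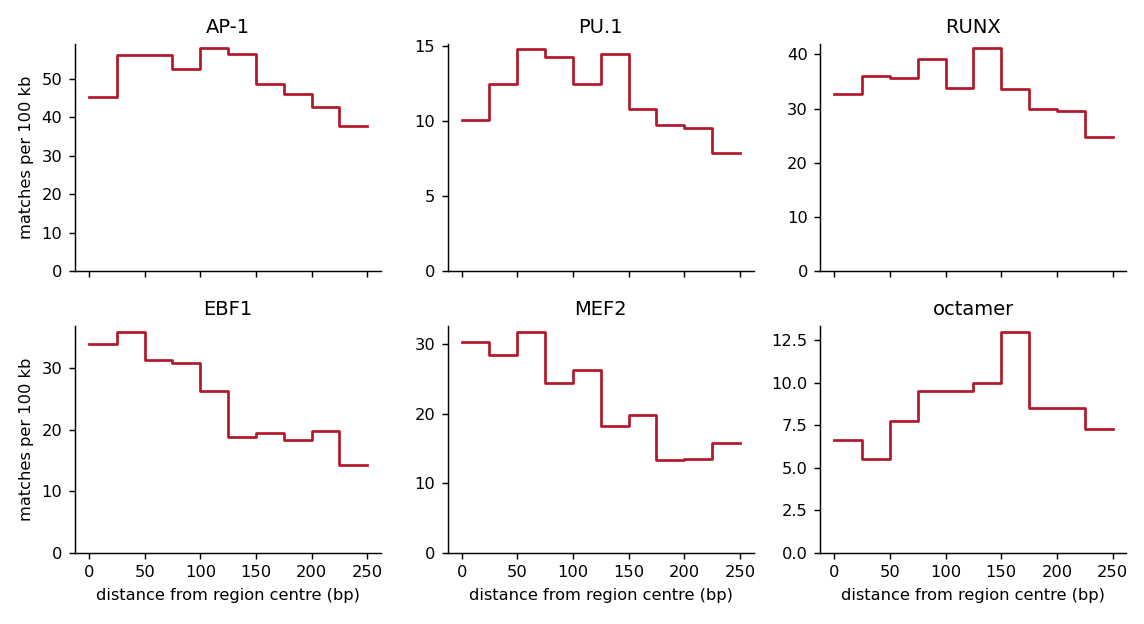
Matches per 100 kb of far intronic region sequence by distance from the region centre in bp, in steps of 25 bp, for 6 motifs over all 7987 regions. EBF1 and MEF2 decline from the centre outwards, and the octamer is low at the centre. AP-1, PU.1 and RUNX are highest between 25 and 150 bp, lower at the centre itself and lowest at the edge.

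Regions with 1 or 2 of the 6 families shown at the start had higher scores than regions with none. The 4580 regions (57.3%) with none of AP-1, PU.1, RUNX, NF-kB, octamer and CTCF had a median score of 22.8, the 2726 with 1 had 27.2, the 617 with 2 had 33.1 and the 64 with 3 or more had 31.6. By single motif, 34.8% of regions with an SP/KLF match were in the upper quartile of the list, 24.6% of those with NF-kB, 24.4% with the ETS pattern (11 of 45), 22.9% with the CRE (8 of 35), 18.9% with PU.1 and 9.15% with MEF2, against 13.5% of all far intronic regions. The share was also below 13.5% for CTCF, 1 of the 6 families (11.6%), for C/EBP (11.8%) and for the E-box CAGGTG (12.7%). Of the 6 regions with NRF1, 3 were in that quartile. The strongest member, in ATP8A1, held none of the 20 patterns in the 300 bases shown.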

How the data were processed

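Chromatin accessibility was measured in single GM12878 cells by plate-based ATAC-seq. The authors cut adapter sequence from the reads, aligned the pairs to hg19 and discarded poor, duplicated and mitochondrial ones. They then pooled all cells, called summits, and took the 50000 with the smallest q-values, each widened to a fixed length. Tools listed in the submitters' processing notes are Bowtie2 2.1.0, Picard 1.79 and MACS2 (version not given in the sources used here). Deposited scores are −log10 q-values. The file gives no read counts, so depth is unknown, and deeply sequenced cells weigh more in the pool. The methods do not say whether libraries that failed the later filter were in it.

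Regions, all 501 bp wide, were placed by their centre on GENCODE 44 genes mapped to GRCh37, whose chromosome lengths match hg19, on chromosomes 1 to 22 and X. All transcripts of protein-coding genes gave TSSs, and exons of all genes excluded a region. Intron ranks are those of the Ensembl canonical transcript. Sequence lengths count bases without N under the same rule. Motifs are exact matches to consensus letters. Intervals are exact binomial or Poisson, at 95%. Scripts used Python 3.11.15, numpy 2.4.6, pandas 2.3.3 and scipy 1.17.1 and were tested on simulated data.

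The members, the 7 gene lists (235 genes) and the motifs were chosen with earlier results of these data known. Named genes are the 10 strongest members, the 10 hosts with most regions (1 of which is not reported here), the 10 densest with at least 5, in each list up to 4 with most and up to 4 with none (the first in alphabetical order), the 5 members farthest from a TSS, 3 on each side of 10 kb, and the 3 strongest of each intron class. Alternatives changed the TSS set, the distance, the exons, the score range, the summits per peak, the transcript and the windows.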

Additional observations from a re-analysis of the deposited data

How the results depend on the processing

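There was 1 pooled list, so depth could not be varied and no library could be left out. No paired analysis was possible because all libraries form 1 group and the list carries no replicate. Of 54 alternative values, 25 stayed within the 95% interval of the reported value, or for the number of hosts within 1.5 times, and 29 moved beyond it. Most of these settings change which regions are counted. The share of the list was 20.3% with TSSs of protein-coding transcripts only, 27.3% with the outermost TSS of each gene, 21.2% beyond 5 kb, 10.5% beyond 20 kb, 15.3% with no exon anywhere in the region, 12.1% among regions at or above the median score of the list and 17.0% with 1 region per called peak. The median score was 27.2 with the outermost TSS and 55.8 among regions at or above that median, which follows from that selection. The share in the first intron was 25.9% with protein-coding transcripts, 32.1% beyond 5 kb, 26.6% beyond 20 kb and 32.1% at or above the median score. It was 29.5% with the longest transcript that spans the centre. The share of hosts with an accessible promoter was 66.8% with protein-coding transcripts, 55.4% with the outermost TSS, 68.0% beyond 20 kb, 65.9% at or above the median score, 66.7% with a window of 500 bp and 73.6% with 2.5 kb. The share with a neighbour was 40.9%, 46.0%, 42.5%, 36.5%, 38.4% and 32.8% with protein-coding transcripts, the outermost TSS, 5 kb, 20 kb, the median score limit and 1 region per peak, and 27.6% and 50.7% for neighbours within 2 and 10 kb. Hosts numbered 4378 with the outermost TSS and 1505 at or above the median score. Where no cause is given, the cause was not tested.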
